A study of Mus musculus with 12 samples.

Results

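Serpins are a family of protease inhibitors, and the members described here were all genes of the deposited expression table whose symbol begins with Serpin followed by a clade letter from a to i and a number. The table held 55 such genes among 18505. Clade a had 22 of them and clade b had 23. Clades e, f and i had 2 each, and clades c, d, g and h had 1 each. Of the clade b genes, 11 known from the epidermis (Serpinb2, Serpinb3a, Serpinb3b, Serpinb3c, Serpinb3d, Serpinb5, Serpinb7, Serpinb8, Serpinb11, Serpinb12 and Serpinb13) were described apart from the other 12.

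An inhibitory serpin offers a flexible reactive centre loop as bait. When the target protease cuts the loop, the serpin springs into a new fold and locks the enzyme to itself, so that each inhibitor molecule is spent on a single protease. Most clade a serpins are secreted and circulate in plasma, whereas clade b serpins lack a classical signal peptide and act largely inside cells, where they hold serine and cysteine proteases in check. In skin, serpins face the kallikrein-related peptidases that shed the outermost layer, the cathepsins of keratinocytes, and the granule proteases of neutrophils and mast cells, while some members, such as the collagen chaperone Serpinh1, inhibit no protease.

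RNA-seq was performed on skin of wild-type BALB/c mice collected on day 10. By the study's methods the mice were male, 5 to 6 weeks old and treated on shaved back skin. The treatment label of the control samples reads white space handling, and the methods give petroleum jelly for this group. The IMQ + NS mice received imiquimod (IMQ) cream, a Toll-like receptor agonist that produces psoriasis-like lesions, for 6 h and then normal saline (NS) under gauze and film. The IMQ + BZLF mice received the same cream and then Banzhilian formula (BZLF), a herbal preparation, in place of saline, daily for 10 days. Each group had 4 samples. The study tested several doses of BZLF and names a most effective one, but the labels do not say which dose the sequenced mice received. No group received BZLF without imiquimod. Imiquimod lesions are an acute, chemically induced model, and each sample was a piece of whole skin.

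The values were FPKM (mapped fragments, divided by transcript length and by the size of the library), which can therefore be compared between genes. The summed FPKM of the samples ranged from 444660 to 506622, and read depth was unknown because the values were not counts. Epidermal keratins, fibroblast genes and hair genes were present in all 12 samples. On the first principal component of all genes, control replicate 2 lay at -63.2 and the other control samples at -116 to -122, and its 8 hair shaft keratins summed to 291 FPKM against 10.9 to 29.1 in the others. Seminal vesicle genes summed to 40.8 FPKM in control replicate 2 and 39.9 FPKM in IMQ + BZLF replicate 2, and to at most 0.0441 in the other samples. Because tissue pieces were sequenced, fewer cells of a type and less RNA per cell cannot be told apart. The labels did not state that each sample was a separate mouse, so the p-values measure the spread between these samples, which may be technical in part.

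Of the 55 Serpin genes, 46 had a mean of at least 0.1 FPKM over the 12 samples and were tested with limma on log2(FPKM + 0.1), together with all 15288 genes that passed that limit. A gene was called higher or lower where its Benjamini-Hochberg adjusted p was under 0.05 and its log2 fold change was over 1 in size. All log2 fold changes below are on this scale, which understates the change of genes with low values, and are given ± the limma standard error, with n = 4 in each group. Between IMQ + NS and control, 12 Serpin genes were higher (11.4% of all genes tested were) and 16 were lower (11% of all genes). Between IMQ + BZLF and IMQ + NS, no Serpin gene was called higher by limma, against 0.321% of all genes, and 9 were lower, against 2.20%. At an unadjusted p under 0.05 and with no limit on the fold, 16 Serpin genes were lower and 4 were higher in that comparison. The 4 were Serpina12, Serpinb6d, Serpinf1 and Serpinh1. The share of all genes under this looser rule was not computed. Between IMQ + BZLF and control, 8 were higher (9.65% of all genes) and 15 were lower (10.1%). Without control replicate 2, the counts against control were 13 higher and 15 lower for IMQ + NS. For IMQ + BZLF they were 8 higher and 16 lower. Over all 15288 genes, 2196 were then higher and 1871 lower for IMQ + NS, against 1740 and 1678 with that sample. For IMQ + BZLF, 1939 of all genes were higher and 1811 lower, against 1475 and 1542. Serpinb3c and Serpinb3d reached the limit for testing only through IMQ + NS, and leaving them out gave 10 higher for IMQ + NS against control and 7 lower for IMQ + BZLF against IMQ + NS. The comparisons share samples, so their values are set side by side and not tested against each other.

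**Figure D1:**
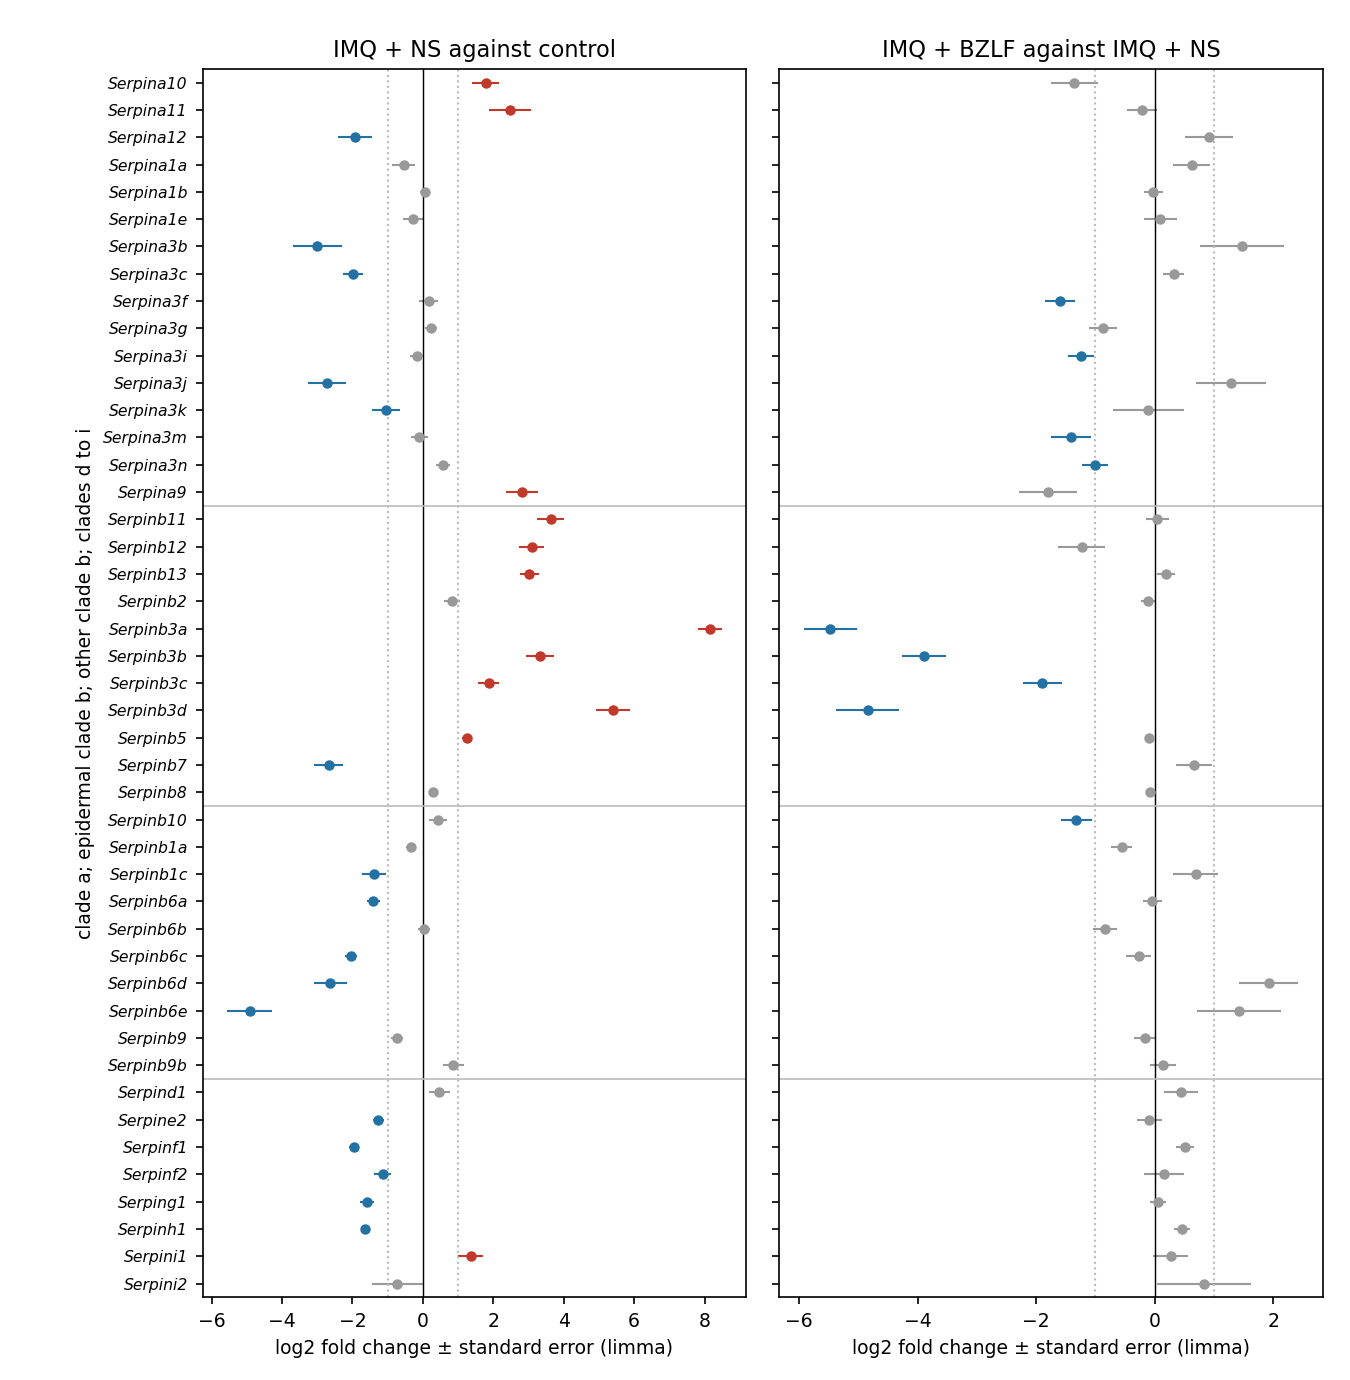
Log2 fold change of 45 of the tested Serpin genes (points) with the limma standard error (bars), for IMQ + NS against control (left) and IMQ + BZLF against IMQ + NS (right). Red points were called higher, blue points lower and grey points neither; dotted lines mark a log2 fold change of 1 in either direction. The 4 Serpinb3 genes lie to the right in the left panel and to the left in the right panel, and no point of the right panel is red.

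Calls are given by position in the genome (GRCm38, which is mm10, the build named in the submitters' processing notes, with the GENCODE M21 annotation). Clade b genes sit in 2 clusters. The chromosome 1 cluster, chr1:106861173-107610484, holds 12 of them in a row: Serpinb5, Serpinb12, Serpinb13, Serpinb3a, Serpinb3d, Serpinb3b, Serpinb3c, Serpinb11, Serpinb7, Serpinb2, Serpinb10 and Serpinb8. In IMQ + NS against control, 8 of these were higher and 1 was lower. The chromosome 13 cluster, chr13:32842092-34002794, holds the other 11, among them the Serpinb1, Serpinb6 and Serpinb9 genes. There, 9 were tested, and 0 were higher and 5 were lower by limma in the same comparison. The 22 clade a genes lie together at chr12:103614786-104414329, with 3 higher and 5 lower of 16 tested.

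The 4 Serpinb3 genes included the largest rises of the family and are near copies of each other, so their sequences are shown to make clear how far reads can separate them. They are the mouse relatives of human squamous cell carcinoma antigens, which inhibit cysteine cathepsins and chymotrypsin-like proteases. Their coding sequences (GENCODE M21) were 86.8% to 93.4% identical in pairs. The 90 coding bases given here, bases 16 to 105 of each coding sequence, are the stretch of that length within a single exon, free of gaps in all 4 genes, in which Serpinb3a and Serpinb3b differed most. Capitals mark each base that differs from Serpinb3a.
Serpinb3a (chr1:107051666-107051755, minus strand): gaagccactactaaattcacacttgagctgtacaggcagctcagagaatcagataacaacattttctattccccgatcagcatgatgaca
Serpinb3b (chr1:107159673-107159762, minus strand): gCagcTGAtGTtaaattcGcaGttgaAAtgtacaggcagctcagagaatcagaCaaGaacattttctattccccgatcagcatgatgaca
Serpinb3c (chr1:107276910-107276999, minus strand): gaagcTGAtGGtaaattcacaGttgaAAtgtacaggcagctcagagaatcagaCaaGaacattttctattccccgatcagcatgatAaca
Serpinb3d (chr1:107083376-107083465, minus strand): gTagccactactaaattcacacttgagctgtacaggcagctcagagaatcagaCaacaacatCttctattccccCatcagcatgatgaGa
Serpinb3b differed from Serpinb3a at 12 of these bases, Serpinb3c at 11 and Serpinb3d at 5. Over whole transcripts, 0.51% of all 100-base windows of Serpinb3b also occurred in Serpinb3c, 6.57% of those of Serpinb3a occurred in the gene model Gm8080, and none of those of Serpinb3d occurred elsewhere. Serpinb3b and Serpinb3c also overlap in the annotation, where a Serpinb3b model at chr1:107153940-107278361 runs into Serpinb3c at chr1:107271201-107278371 on the same strand. How the authors' counting divided such reads was not given in the sources used here, so the split between Serpinb3b and Serpinb3c is uncertain.

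Promoter sequences were compared because neighbouring genes of the chromosome 1 cluster moved differently after BZLF. The RefSeq table (GRCm38.p6) had entries for 46 of the 55 Serpin genes. The 250 bases before each start were searched on both strands for TATAAA, the STAT motif TTCNNNGAA and the NF-kappa B motif. They were also searched for TGANTCA, a loose form of the AP-1 motif that allows any middle base. Serpinb3a and Serpinb3b are shown as genes that fell after BZLF, and Serpinb5 as a gene of the same cluster that differed little between the imiquimod groups. Capitals mark matches to any of these motifs.
Serpinb3a (chr1:107052304-107052553, minus strand): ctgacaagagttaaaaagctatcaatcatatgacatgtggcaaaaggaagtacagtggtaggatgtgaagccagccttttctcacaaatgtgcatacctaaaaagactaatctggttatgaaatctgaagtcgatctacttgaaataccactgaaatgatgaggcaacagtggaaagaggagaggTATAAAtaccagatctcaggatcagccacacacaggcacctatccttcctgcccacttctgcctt
Serpinb3b (chr1:107161115-107161364, minus strand): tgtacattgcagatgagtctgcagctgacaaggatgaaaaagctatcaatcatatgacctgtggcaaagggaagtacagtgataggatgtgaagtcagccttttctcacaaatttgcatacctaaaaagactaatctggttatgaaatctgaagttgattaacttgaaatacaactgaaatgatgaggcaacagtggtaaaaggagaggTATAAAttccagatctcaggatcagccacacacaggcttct
Serpinb5 (chr1:106860925-106861174, plus strand): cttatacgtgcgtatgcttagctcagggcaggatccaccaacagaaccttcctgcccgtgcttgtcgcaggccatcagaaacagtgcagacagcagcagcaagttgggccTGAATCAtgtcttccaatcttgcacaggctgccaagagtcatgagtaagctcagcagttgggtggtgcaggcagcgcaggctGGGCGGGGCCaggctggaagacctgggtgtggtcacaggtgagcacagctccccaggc
The Serpinb3a and Serpinb3b windows were 93.4% identical over 226 aligned bases, and each held TATAAA and none of the other motifs, as did that of Serpinb3c. For Serpinb3d the RefSeq start coincides with the start codon, whereas in Serpinb3a it lies 533 bases before it, so the Serpinb3d window is not the matching stretch and is not printed. TGANTCA was found in 7 of the 11 genes of the cluster that had an entry, namely Serpinb2, Serpinb5, Serpinb7, Serpinb8, Serpinb10, Serpinb11 and Serpinb12. Only Serpinb7 and Serpinb8 had g as its middle base, which in the AP-1 consensus is c or g. The other matches had a or t there. By comparison, TGANTCA was found in 6.7% of all 32851 windows of the table, and TATAAA in 12.4%. These shares count windows, whereas 7 of 11 counts genes, and Serpinb2 and Serpinb12 had a pair of windows each. These 7 genes include ones that were higher, lower and not called in IMQ + NS against control. A match describes letters and is not a binding site.

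The Serpinb3 genes were high in the IMQ + NS lesions and lower in both other groups. All 4 were higher in IMQ + NS than in control and all 4 were lower in IMQ + BZLF than in IMQ + NS. Serpinb3a measured 0.0307, 0.0461, 0.0628 and 0.0158 FPKM in the control samples, 23.5, 50.7, 71 and 27.7 in the IMQ + NS samples and 0.411, 0.511, 1.56 and 1.06 in the IMQ + BZLF samples. Each IMQ + NS sample thus stood above each sample of the other groups. The log2 fold change was 8.15 ± 0.33 for IMQ + NS against control (limma adjusted p = 5.37e-07) and -5.48 ± 0.44 for IMQ + BZLF against IMQ + NS (adjusted p = 0.00057). Serpinb3a was the only Serpin gene with all 3 calls: it remained higher in IMQ + BZLF than in control, by 2.68 ± 0.37 (adjusted p = 0.0006). This last call rests on low control values and was lost with a constant of 1 in place of 0.1, at 0.82, although every IMQ + BZLF sample exceeded every control sample.

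Serpinb3b, the most abundant of the 4, measured 10.6, 3.94, 12.3 and 13.5 FPKM in control skin, 72.3, 95.8, 147 and 72.8 with IMQ + NS and 3.03, 5.2, 9.42 and 9.57 with IMQ + BZLF. Unlike the others it was already well detected in control skin. The mean in IMQ + NS was 9.62 times that in control and 14.2 times that in IMQ + BZLF (limma adjusted p = 0.000194 and 0.00134). IMQ + BZLF and control overlapped, with a log2 fold change of -0.56 ± 0.47 that did not pass the test (adjusted p = 0.336). Serpinb3d was listed at 0 in 3 control samples and at 0.0213 FPKM in replicate 3, at 2.3, 9.8, 7.14 and 2.16 in IMQ + NS, and at 0.0645, 0, 0.19 and 0.0204 in IMQ + BZLF. Within IMQ + NS, replicates 2 and 3 lay above replicates 1 and 4 for Serpinb3a, Serpinb3b and Serpinb3d alike. Serpinb3c stayed low throughout, from 0.210 to 0.615 FPKM in IMQ + NS and at most 0.0764 in the other groups, and it was called in the same direction as its neighbours. Since Serpinb3c and Serpinb3d were tested only because IMQ + NS was high, they had to differ between groups.

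Neutrophil and keratinocyte genes moved with the Serpinb3 genes. All 8 neutrophil markers were higher in IMQ + NS than in control and all 8 were lower in IMQ + BZLF than in IMQ + NS. Their summed FPKM was 32.7 to 50.8 in control, 3132 to 9906 with IMQ + NS and 62.9 to 83.7 with IMQ + BZLF. That sum was mostly S100a8 and S100a9, which averaged 3010 and 2909 FPKM with IMQ + NS, so it says little of the other markers. Csf3r, the highest of the others in IMQ + NS, averaged 2.88 FPKM in control, 14.8 with IMQ + NS and 2.54 with IMQ + BZLF. In IMQ + NS the sum was 3132, 5766, 9906 and 5061 FPKM in replicates 1 to 4. Replicate 3 was the highest for the sum and for Serpinb3a and Serpinb3b, whereas Serpinb3d was highest in replicate 2, at 9.8 FPKM. Replicate 3 was also the highest for the keratins of hyperproliferative epidermis, at 4207 FPKM. The same held for the basal and suprabasal keratins, at 7724 FPKM. The sum of the 4 keratins of hyperproliferative epidermis was 190 to 616 FPKM in control. It was 2344 to 4207 with IMQ + NS and 1140 to 1392 with IMQ + BZLF. By limma, 4 rose from control to IMQ + NS and 3 fell after BZLF. In control and with BZLF this keratin sum was mostly Krt17, the gene not called after BZLF. Krt17 averaged 310 FPKM in control, 1569 with IMQ + NS and 1143 with IMQ + BZLF. Krt6a averaged 12.5, 563 and 105 FPKM in that order of groups, Krt6b 1.91, 407 and 19.9, and Krt16 2.62, 530 and 21.5. The part of these cells in the Serpinb3 values was not tested.

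**Figure D2:**
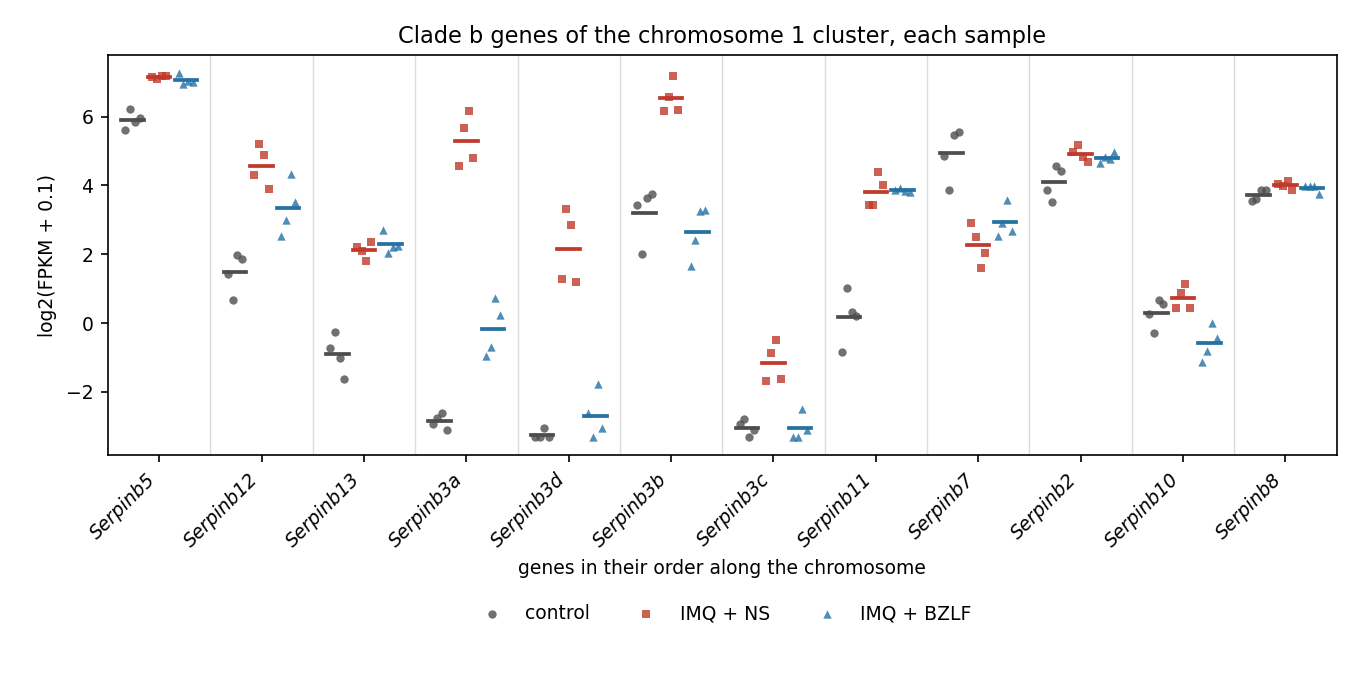
Level of the 12 clade b genes of the chromosome 1 cluster as log2(FPKM + 0.1), in their order along the chromosome. Points are the 4 samples of each group and lines are group means. The 4 Serpinb3 genes rise in IMQ + NS and return towards the control level in IMQ + BZLF, whereas Serpinb5, Serpinb11 and Serpinb13 lie at similar heights in both imiquimod groups and Serpinb7 is lower in both.

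None of the other 7 epidermal clade b genes was called after BZLF against saline. Serpinb5 (maspin), a non-inhibitory serpin of epithelial cells, was the most abundant epidermal member. It measured 48.8, 75, 57.6 and 61.7 FPKM in control, 142, 137, 145 and 146 with IMQ + NS and 153, 123, 131 and 129.9 with IMQ + BZLF. Both imiquimod groups lay above every control sample and overlapped each other. The log2 fold changes were 1.25 ± 0.12 for IMQ + NS against control (limma adjusted p = 6.5e-05) and -0.09 ± 0.07 for IMQ + BZLF against IMQ + NS (adjusted p = 0.489).

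Serpinb13, an inhibitor of lysosomal cathepsins in stratified epithelia, measured 0.498, 0.731, 0.398 and 0.224 FPKM in control, 4.5, 4.16, 3.4 and 5.01 with IMQ + NS and 6.43, 4.03, 4.54 and 4.66 with IMQ + BZLF. Serpinb11 measured 0.457, 1.94, 1.16 and 1.06, then 10.7, 10.7, 20.8 and 16.2, and then 14.6, 15.1, 14.2 and 13.9 FPKM in the same order of groups. The mean in IMQ + NS was 9.22 times that in control for Serpinb13 and 12.6 times for Serpinb11, and the imiquimod groups overlapped each other, with log2 fold changes of 0.19 ± 0.16 and 0.04 ± 0.20 between them. Serpinb12, an inhibitor of trypsin-like proteases, measured 2.57, 1.48, 3.86 and 3.56 FPKM in control, 19.5, 36.9, 29.7 and 14.8 with IMQ + NS and 5.64, 7.89, 19.9 and 11.4 with IMQ + BZLF. It was higher than control in both imiquimod groups. Its log2 fold change of -1.23 ± 0.40 after BZLF did not pass the test (limma adjusted p = 0.106), and the highest IMQ + BZLF sample exceeded the 2 lowest IMQ + NS samples. Without IMQ + BZLF replicate 3, that highest sample, Serpinb12 was called lower, at -1.56. Hair shaft keratins were likewise high in both imiquimod groups, with sums of 5197 to 7668 FPKM with saline and 6987 to 10628 with BZLF against 10.9 to 291 in control. Control replicate 2, the highest control sample for that sum, was also the highest for Serpinb5, Serpinb11 and Serpinb13, but the lowest for Serpinb12. The part of hair cells in these values was not tested.

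Serpinb7 was the epidermal member that went the other way. Mutation of its human counterpart causes Nagashima-type palmoplantar keratosis, an inherited thickening of the skin of palms and soles. It measured 29, 14.4, 44 and 47.2 FPKM in control, 7.39, 5.51, 2.94 and 4.03 with IMQ + NS and 5.72, 7.38, 11.8 and 6.33 with IMQ + BZLF. All 8 imiquimod samples lay below all 4 control samples, and control replicate 2 was the lowest control sample. The log2 fold change was -2.68 ± 0.41 for IMQ + NS over control (limma adjusted p = 0.000686) and -2.01 ± 0.38 in IMQ + BZLF against control (adjusted p = 0.00259). Serpinb2, an inhibitor of plasminogen activators, and Serpinb8, an inhibitor of furin, were not called in any comparison. Serpinb2 ranged from 11.5 to 23.7 FPKM in control, 25.5 to 36.2 with IMQ + NS and 24.9 to 31.5 with IMQ + BZLF, and its log2 fold change of 0.82 ± 0.23 was below the limit of 1. Serpinb8 ranged from 11.6 to 17.6 FPKM over all 12 samples.

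Over the 11 epidermal genes together, 8 were higher and 1 was lower in IMQ + NS than in control, with a median log2 fold change of 3.02 against 0.05 over all genes tested. After BZLF against saline, 0 were called higher and 4 lower by limma, with a median of -0.11 against -0.02 over all genes. Without Serpinb3c and Serpinb3d, 6 of 9 were higher in IMQ + NS than in control and 2 of 9 were lower after BZLF. Relative to control, 5 were higher and 1 was lower in IMQ + BZLF. The epidermal serine proteases that serpins and other inhibitors face in skin (10 kallikrein-related genes and 2 others) showed 10 of 12 higher in IMQ + NS than in control and 7 of 12 lower in IMQ + BZLF than in IMQ + NS. Klk6 averaged 7.42 ± 1.35 FPKM in control (SD, n = 4), 188 ± 76.0 with IMQ + NS and 27.9 ± 7.74 with IMQ + BZLF. Klk7 averaged 45.7 ± 6.79, 206 ± 50.4 and 112 ± 22.2 FPKM in the same groups, and Klk10 averaged 36.0 ± 12.8, 109 ± 25.2 and 60.8 ± 13.8. Of these genes, Klk6 was called lower in IMQ + BZLF than in IMQ + NS, and Klk7 and Klk10 were not. Of the 10 papain-like cathepsins, the cysteine proteases that Serpinb3 and Serpinb13 relatives inhibit, 0 were called higher by limma and 2 were lower (Ctsk and Ctso) in IMQ + NS than in control, and Ctss alone was lower after BZLF.

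Among clade a genes, some were lower in both imiquimod groups and others were lower with BZLF than with saline. Most of those named here are mouse duplicates of the gene for antichymotrypsin. The coding sequences of the Serpina3 genes were 75.0% to 92.1% identical in pairs, and in each Serpina3 gene that is named here at most 6.09% of 100-base windows recurred in another gene. In the annotation, however, the Serpina3m model at chr12:104338486-104394257 covers Serpina3k at chr12:104338486-104346144 on the same strand. The split of reads between Serpina3k and Serpina3m is therefore uncertain. Serpina3n, an acute-phase inhibitor of cathepsin G and granzyme B, was the most abundant clade a gene. It measured 84.6, 73.8, 81.8 and 81.3 FPKM in control, 84.7, 168, 143 and 103 with IMQ + NS and 46.5, 67.3, 69.7 and 58.6 with IMQ + BZLF. All 4 IMQ + BZLF samples lay below all samples of the other groups. The log2 fold change against IMQ + NS was -1.01 ± 0.21 (limma adjusted p = 0.0274), which lay just past the fold limit. The call was lost without IMQ + NS replicate 2, 3 or 4 or IMQ + BZLF replicate 1, 2 or 4, each in turn. The log2 fold changes were then -0.85 to -1.08. Each rescaling of the samples also lost it, at -0.95 (median ratio), -0.98 (equal sums) and -0.96 (quantile normalization). So did a constant of 1, no filter on the mean FPKM and no trend in the fit. The rise from control to IMQ + NS, 0.58 ± 0.20 (adjusted p = 0.0321), did not reach the fold limit.

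Serpina3f, Serpina3i and Serpina3m were not called in IMQ + NS against control and were lower with BZLF than in either other group. Serpina3f measured 3.91, 2.6, 3.87 and 3.9 FPKM in control, 2.53, 3.8, 6.24 and 4.07 with IMQ + NS and 0.934, 1.2, 1.47 and 1.41 with IMQ + BZLF. Serpina3i measured 5.14, 3.59, 6.39 and 6.3, then 3.999, 4.24, 5.81 and 4.81, and then 1.19, 2.59, 1.84 and 2.29 FPKM. For both genes, every IMQ + BZLF sample lay below every other sample. Their log2 fold changes against IMQ + NS were -1.60 ± 0.25 and -1.25 ± 0.22 (limma adjusted p = 0.00902 and 0.0135). Serpina3m measured 2.73, 2.12, 3.25 and 2.16 FPKM in control, 1.63, 3.47, 2.54 and 2.12 with IMQ + NS and 0.603, 1.64, 0.882 and 0.498 with IMQ + BZLF, where the groups overlapped in IMQ + NS replicate 1 and IMQ + BZLF replicate 2. Its call against IMQ + NS had a log2 fold change of -1.41 ± 0.34 (limma adjusted p = 0.0432). The call was lost without IMQ + NS replicate 2, 3 or 4 or IMQ + BZLF replicate 1, 3 or 4, each in turn. The log2 fold changes were then -1.21 to -1.46. A constant of 1, median ratio scaling, no filter on the mean FPKM or no trend in the fit also lost it. The related Serpina3g showed 4.42, 4.23, 7.14 and 5.6 FPKM in IMQ + NS and 1.96, 3.04, 2.56 and 4.07 in IMQ + BZLF, with no overlap and an adjusted p of 0.0574 by limma, and it was called without IMQ + BZLF replicate 4, at -1.05. Macrophage markers summed to 672 to 972 FPKM in control, 475 to 673 with saline and 317 to 469.9 with BZLF, and Adgre1 alone of 7 was called lower after BZLF, as were all 8 neutrophil markers. Their part in the Serpina3 values was not tested.

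Serpina3b, Serpina3c and Serpina3j, which lie in the same cluster, were lower in both imiquimod groups than in control. Serpina3b measured 48, 44.2, 43.1 and 46.3 FPKM in control, 19, 9.26, 1.18 and 4.44 with IMQ + NS and 9.65, 21.5, 16.9 and 17.3 with IMQ + BZLF. Serpina3j measured 46.1, 39, 54.4 and 56.7, then 18, 11.9, 2.28 and 5.55, and then 10.3, 27.1, 24.6 and 14.7 FPKM. The IMQ + NS samples of both genes spread widely, from replicate 1, the highest, to replicate 3, the lowest. Serpina3c measured 50.1, 25.3, 52.7 and 54.4 FPKM in control, 9.37, 16.6, 8.99 and 10.6 with IMQ + NS and 11.7, 15.3, 15.1 and 13.4 with IMQ + BZLF, and control replicate 2 stood well below the other control samples. The log2 fold changes of IMQ + NS against control were -3.0 ± 0.69, -2.73 ± 0.55 and -1.97 ± 0.28 for Serpina3b, Serpina3j and Serpina3c (limma adjusted p = 0.00617, 0.00302 and 0.000492). Serpina12 (vaspin), an adipokine that inhibits Klk7 and is also made in epidermis, measured 14.9, 7.85, 23.2 and 24.1 FPKM in control, 8.05, 6.04, 2.2 and 2.68 with IMQ + NS and 5.81, 6.76, 11.9 and 8.18 with IMQ + BZLF. It was lower in both imiquimod groups (log2 fold change -1.93 ± 0.48 and -1.01 ± 0.37, limma adjusted p = 0.00912 and 0.0438), but control replicate 2 overlapped with both, and the second call was lost without control replicate 1, 3 or 4 or IMQ + BZLF replicate 1, 2 or 4, each in turn, with log2 fold changes of -0.82 to -1.05. Beside these falls, 4 of 6 adipocyte markers and 3 of 7 sebaceous gland markers were lower in IMQ + NS than in control, and 1 sebaceous marker, Fads2, was higher. The adipocyte markers summed to 3798 to 8602 FPKM in control, 1870 to 2948 with IMQ + NS and 2529 to 3005 with IMQ + BZLF, and the sebaceous markers to 858 to 1228, 380 to 631 and 550 to 799. Their part in the clade a values was not tested.

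Among clade a genes with low values, 3 were higher in IMQ + NS than in control. Serpina11 measured 0.142, 0.872, 0.217 and 0 FPKM in control, 1.64, 1.7, 1.1 and 1.79 with IMQ + NS and 1.02, 1.84, 1.74 and 0.874 with IMQ + BZLF, and 42.4% of its 100-base windows also occurred in the gene model Gm28577, so its value is uncertain. Serpina9, a serpin of germinal centre B cells, averaged 0.16 ± 0.195 FPKM in control (SD, n = 4), 1.4 ± 0.171 with IMQ + NS and 0.439 ± 0.416 with IMQ + BZLF. Serpina10, the protein Z-dependent inhibitor of coagulation factor X, averaged 0.0702 ± 0.0785, 0.484 ± 0.242 and 0.131 ± 0.0995 FPKM. For Serpina9 and Serpina10 the mean in IMQ + BZLF lay between those of the other groups, and neither difference from IMQ + NS passed the test (limma adjusted p = 0.06 and 0.0782), although Serpina9 was called without IMQ + BZLF replicate 4, at -2.27. Serpina3k, at a mean of 0.657 FPKM over all samples, was lower in IMQ + NS than in control (adjusted p = 0.0481), a call that was lost when any single sample other than control replicate 1 was left out, with log2 fold changes of -0.73 to -1.17. Serpina1b, which encodes a form of alpha-antitrypsin, ranged from 1.86 to 3.09 FPKM over all 12 samples and was not called. The Serpina1 genes were 96.3% to 98.5% identical in coding sequence and shared 14.8% to 58.5% of their 100-base windows with other genes, so their separate values are uncertain. Together, 3 clade a genes were higher and 5 lower of 16 tested in IMQ + NS against control, 0 and 4 in IMQ + BZLF against IMQ + NS, and 1 and 7 in IMQ + BZLF against control. Liver markers, which would mark plasma-protein-producing cells, summed to 1.74 to 8.72 FPKM over the 12 samples.

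**Figure D3:**
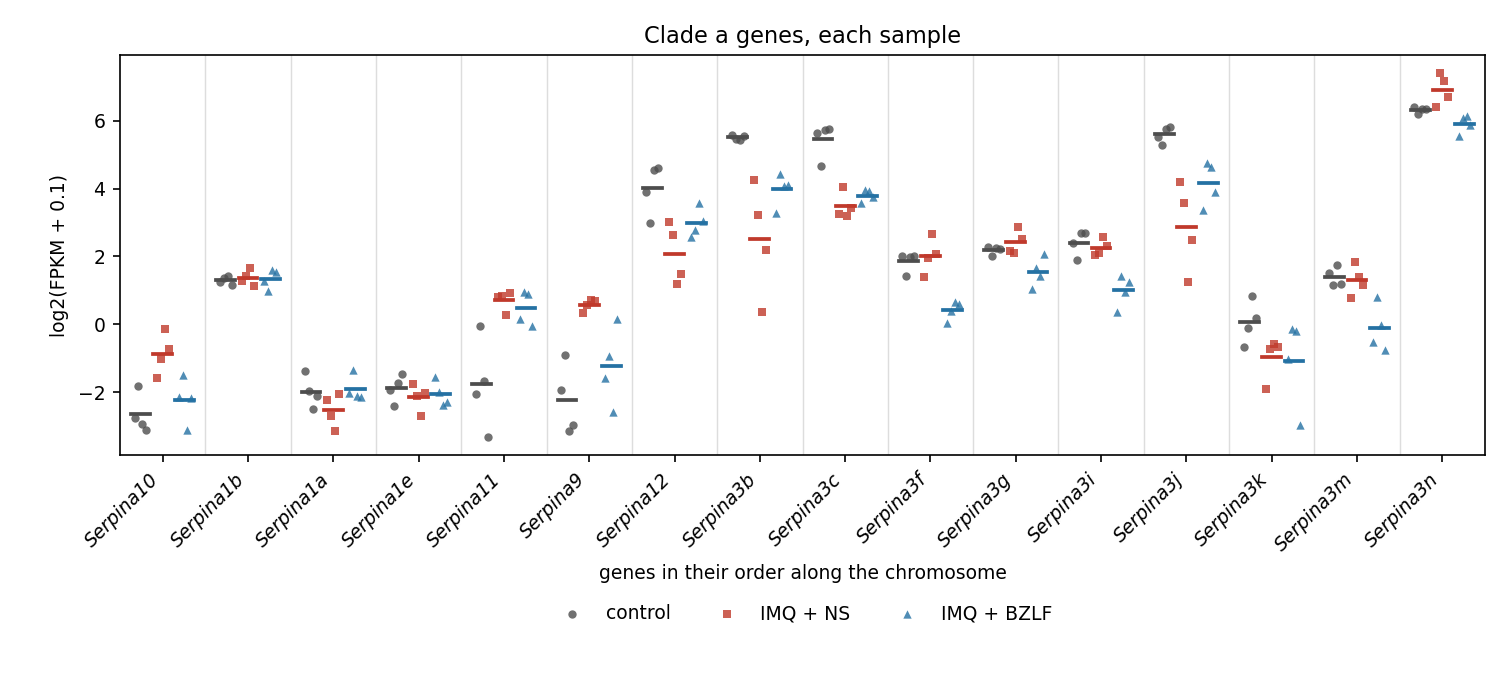
Level of the 16 tested clade a genes as log2(FPKM + 0.1), in their order along chromosome 12. Points are the 4 samples of each group and lines are group means. Serpina3b, Serpina3c and Serpina3j are lower in both imiquimod groups, whereas Serpina3f, Serpina3i and Serpina3n are lowest in IMQ + BZLF.

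The clade b genes outside the epidermal list were lower or not called in IMQ + NS against control. Serpinb6a, an inhibitor of cathepsin G found in many cell types, had the highest mean of the clade b genes over the 12 samples. It measured 223, 136, 240.5 and 219.6 FPKM in control, 65.7, 89, 84.8 and 65.5 with IMQ + NS and 54.7, 83.5, 89.6 and 70.9 with IMQ + BZLF. All imiquimod samples lay below all control samples. Relative to control, the log2 fold change was -1.41 ± 0.19 with IMQ + NS and -1.45 ± 0.21 with IMQ + BZLF (limma adjusted p = 0.000399 and 0.000746).

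Serpinb6c, Serpinb6d and Serpinb6e, relatives of Serpinb6a, fell as well in IMQ + NS, and by more. Serpinb6c measured 21, 16.5, 25.9 and 31.8 FPKM in control, 5.31, 5.51, 5.86 and 5.56 with IMQ + NS and 3.56, 7.73, 4.11 and 3.96 with IMQ + BZLF. Serpinb6e measured 17.9, 9.5, 21.7 and 18.9, then 1.84, 0.43, 0.0787 and 0.363, and then 0.571, 3.08, 1.86 and 0.958 FPKM. The Serpinb6e change in IMQ + NS was the largest fall of any Serpin gene, at -4.92 ± 0.63 (limma adjusted p = 0.000298). Serpinb6d measured 9.13, 21.8, 10.9 and 14.7 FPKM in control, 5.02, 1.92, 0.898 and 2.04 with IMQ + NS and 4.48, 15, 6.43 and 10.03 with IMQ + BZLF. It was the Serpin gene nearest to a rise after BZLF: 2 of 4 IMQ + BZLF samples lay within the control range and 1 lay below the highest IMQ + NS sample, with a log2 fold change of 1.92 ± 0.50 against IMQ + NS and an adjusted p of 0.0545 by limma. Without IMQ + NS replicate 1 or IMQ + BZLF replicate 1 it was called, at 2.34 and 2.20. In Serpinb6d, Serpinb6e, Serpina3b and Serpina3j alike, IMQ + NS replicate 1 was the highest of its group and replicate 3 the lowest. The Serpinb6 coding sequences were 77.5% to 87.9% identical, and these genes shared no 100-base window with another gene.

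Serpinb10, a nuclear serpin of blood-forming cells that GENCODE lists as a polymorphic pseudogene, lies in the chromosome 1 cluster and was the only one of these genes called after BZLF. It measured 1.09, 0.71, 1.5 and 1.36 FPKM in control, 1.26, 1.75, 2.1 and 1.26 with IMQ + NS and 0.359, 0.465, 0.896 and 0.643 with IMQ + BZLF. The log2 fold change against IMQ + NS was -1.32 ± 0.26 (limma adjusted p = 0.0202), and 9.41% of its 100-base windows also occurred in Serpinb2. The call was lost without IMQ + NS replicate 2 or 3 or IMQ + BZLF replicate 2, each in turn, with log2 fold changes of -1.19 to -1.27. A pair of inhibitors of leukocyte granule proteases were not called in any comparison. Serpinb1a, which inhibits neutrophil elastase, ranged from 15.9 to 19.9 FPKM in control, 10.98 to 16.3 with IMQ + NS and 7.47 to 13.0 with IMQ + BZLF. Its fall in IMQ + BZLF against control, -0.90 ± 0.16 on the log2 scale (limma adjusted p = 0.00214), missed only the fold limit. Serpinb9, which inhibits granzyme B, ranged from 2.32 to 3.79, 1.46 to 1.88 and 1.01 to 1.95 FPKM. Its falls against control also missed only that limit, at -0.73 ± 0.16 with IMQ + NS and -0.90 ± 0.22 with IMQ + BZLF (limma adjusted p = 0.00541 and 0.00949). Of their targets, Elane averaged 0.340 ± 0.284 FPKM in control (SD, n = 4), 0.701 ± 0.377 with IMQ + NS and 0.194 ± 0.0842 with IMQ + BZLF, and was lower in the last than in IMQ + NS. Prtn3, another neutrophil granule protease, averaged 13.4 ± 3.91, 4.93 ± 1.15 and 3.75 ± 0.611 FPKM and was lower in each imiquimod group than in control. Of the 9 granzymes, 4 were tested. In IMQ + NS against control Gzmb was higher and Gzmm was lower, and Gzmb was lower after BZLF. Among members under 1 FPKM, Serpinb1c was lower in IMQ + NS than in control (-1.39 ± 0.34) and Serpinb9b was higher in IMQ + BZLF than in control (1.01 ± 0.32). The Serpinb9b call was lost without control replicate 1 or 4 or IMQ + BZLF replicate 1, 2 or 4, each in turn, and with the replicate number as a block. In all, 5 of the 10 tested genes of this group were lower in IMQ + NS, with a median log2 fold change of -1.06, and 3 were lower and 1 was higher in IMQ + BZLF, each against control.

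The serpins of clades e, f, g and h together formed the most abundant part of the family in control skin. Most of them were lower in both imiquimod groups. Serpinh1, the chaperone of procollagen in the endoplasmic reticulum, measured 433, 516, 455 and 449 FPKM in control, 156, 141, 144 and 148 with IMQ + NS and 146, 234, 206 and 239 with IMQ + BZLF. The mean in control was 3.15 times that in IMQ + NS (log2 fold change -1.65 ± 0.07, limma adjusted p = 7.78e-07). In IMQ + BZLF it was 0.46 ± 0.14 on the log2 scale relative to IMQ + NS, which did not pass the test (adjusted p = 0.0952), and replicate 1 lay within the IMQ + NS range. Of 9 collagen genes listed as its clients, 3 (Col1a1, Col1a2 and Col3a1) were lower in each imiquimod group than in control. Col1a2 averaged 5592 ± 991 FPKM in control (SD, n = 4), 1184 ± 236 with IMQ + NS and 2184 ± 575 with IMQ + BZLF.

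Serpinf1 (pigment epithelium-derived factor), a non-inhibitory serpin that restrains vessel growth, measured 423, 289.7, 429 and 403 FPKM in control, 109.9, 109, 86.9 and 91.7 with IMQ + NS and 100.1, 156, 163 and 155 with IMQ + BZLF. Serping1, the C1 inhibitor that controls complement and kallikrein-kinin proteases, measured 481, 298, 571 and 502, then 131, 170.3, 158 and 143, and then 118, 183, 175 and 156 FPKM. In both genes every control sample exceeded every imiquimod sample, and control replicate 2 was the lowest of its group. The log2 fold changes of IMQ + NS against control were -1.95 ± 0.14 and -1.59 ± 0.19 (limma adjusted p = 1.56e-05 and 0.00021). Of the complement proteases that Serping1 faces, 5 were tested and C1rl alone was called, lower in each imiquimod group than in control.

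Serpine2 (protease nexin), an inhibitor of thrombin and urokinase, measured 21.5, 21.9, 23.4 and 23.2 FPKM in control, 8.33, 13.2, 9.05 and 7.56 with IMQ + NS and 6.38, 8.13, 10.5 and 10.7 with IMQ + BZLF. It fell against control by a similar amount in both imiquimod groups, -1.26 ± 0.16 and -1.35 ± 0.16 on the log2 scale. Of the 6 tested genes of the plasminogen activator system, 0 were called by limma in any comparison. Serpinf2, the inhibitor of plasmin, averaged 0.522 ± 0.114 FPKM in control (SD, n = 4), 0.186 ± 0.0827 with IMQ + NS and 0.229 ± 0.127 with IMQ + BZLF, and was lower in IMQ + NS than in control.

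Of the 6 genes of clades e to h, 5 were lower in IMQ + NS and 4 in IMQ + BZLF, each against control, with median log2 fold changes of -1.42 and -1.27, and 0 were called by limma between the imiquimod groups. Some stromal markers and the skeletal muscle markers were lower beside them. The 6 fibroblast markers summed to 1951 to 2777 FPKM in control. Their sums were 656 to 875 with IMQ + NS and 577 to 1069 with IMQ + BZLF. Most of each sum was Dcn, which averaged 1696, 481 and 571 FPKM in these groups. Against control, 3 of the 6 (Dcn, Lum and Fbln1) were lower in each imiquimod group, and Pdgfra, Pdgfrb and Mfap5 were not called. Of 6 endothelial markers, 0 were called by limma in any comparison. All 6 skeletal muscle markers were lower in each imiquimod group, with sums of 3346 to 8220, 619 to 1529 and 1099 to 1456. The part of the amount of dermis and muscle in each piece was not tested.

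**Figure D4:**
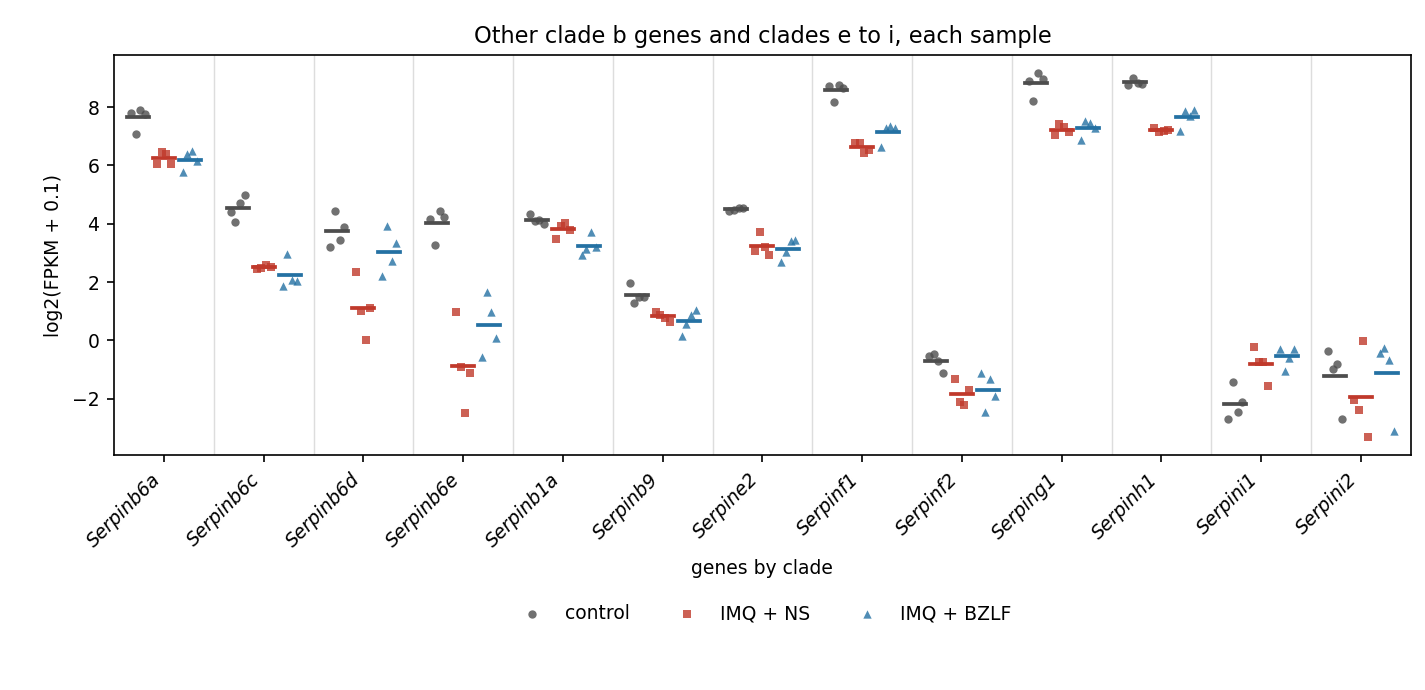
Level of 13 genes of clade b outside the epidermal list and of clades e to i as log2(FPKM + 0.1). Points are the 4 samples of each group and lines are group means. Serpinb6a, Serpinb6c, Serpine2, Serpinf1, Serping1 and Serpinh1 are lower in both imiquimod groups, and Serpini2 varies among the samples of every group.

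Clades c, d and i were near the limit of testing. Serpini1 (neuroserpin), an inhibitor of tissue plasminogen activator, averaged 0.134 ± 0.095 FPKM in control (SD, n = 4), 0.497 ± 0.208 with IMQ + NS and 0.598 ± 0.161 with IMQ + BZLF. It was called higher in both imiquimod groups than in control (log2 fold change 1.36 ± 0.35 and 1.63 ± 0.31), while of the 2 neuron markers tested of 5, Tubb3 was higher in both and Stmn2 was lower in IMQ + NS than in control. Serpini2, a pancreas serpin, was not called, but its samples ranged from 0 to 0.891 FPKM in IMQ + NS. Its values were 0.668, 0.404, 0.467 and 0.0543 FPKM in control, 0.14, 0.0918, 0.891 and 0 with IMQ + NS and 0.633, 0.731, 0.534 and 0.0171 with IMQ + BZLF. The 8 pancreas enzyme genes summed, in the same order, to 188, 204, 212 and 18.2 FPKM in control, to 45.7, 54.1, 232 and 0.226 in IMQ + NS, and to 181, 198, 200.02 and 17.6 in IMQ + BZLF. Replicate 4 was the lowest of each group for Serpini2 and for the pancreas sum, and the pancreas sums of control and IMQ + BZLF were close for each number. Whether Serpini2 came from pancreas RNA was not tested. Serpind1 (heparin cofactor) ranged from 0.0457 to 0.390 FPKM over all samples and was not called, and Serpinc1 (antithrombin) reached at most 0.131 FPKM and was not tested.

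The remaining members were low. Of the 55 genes, 9 had a mean below 0.1 FPKM and were not tested, namely Serpina16, Serpina1c, Serpina1d, Serpina3a, Serpina5, Serpina6, Serpinb1b, Serpinb9e and Serpinc1. Of the 46 tested, 33 had a mean of at least 1 FPKM, and 12 were not called in any comparison.

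Epidermal genes made up a larger share of the family's summed FPKM in both imiquimod groups than in control. The Serpin genes summed to 2019 ± 251 FPKM in control (SD, n = 4), 1081 ± 121 with IMQ + NS and 978 ± 141 with IMQ + BZLF. Epidermal clade b genes made up 6.94% ± 0.81 of that sum in control, 35.4% ± 3.21 with IMQ + NS and 23.3% ± 4.52 with IMQ + BZLF. Clade f measured 387 ± 65.2 FPKM in control, 99.5 ± 11.8 with saline and 144 ± 29.2 with BZLF. Clade g measured 463 ± 116, 151 ± 17.3 and 158 ± 29 FPKM, and clade h measured 463 ± 36.4, 147 ± 6.14 and 206 ± 43.0. By the mean over all 12 samples, the family's sum is dominated by a few abundant genes, chiefly Serpinh1, Serping1, Serpinf1, Serpinb6a and Serpinb5. In IMQ + NS, Serpina3n (mean 125 FPKM) and Serpinb3b (96.9) also weighed in it, beside Serpinf1 (99.3) and Serpinb6a (76.2).

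**Figure D5:**
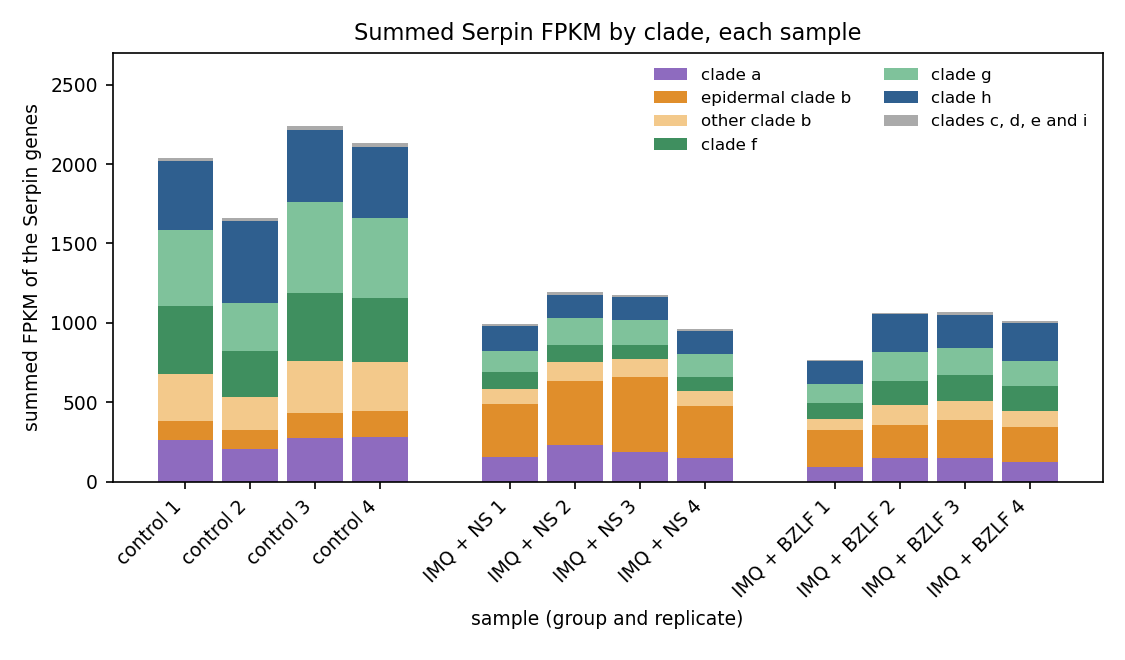
Summed FPKM of the Serpin genes in each of the 12 samples, stacked by clade, with the bars starting at 0. The 4 control samples sum to 1663 to 2241 FPKM and all imiquimod samples to 769.7 to 1191, and the orange block of epidermal clade b genes is tallest in IMQ + NS.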

How the data were processed

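RNA-seq of mouse skin gave 12 samples in 3 groups of 4. The deposited table held FPKM per gene as the authors computed it. The submitters' processing notes name fastp, HISAT2, HTSeq, R 3.2.0 and mm10, and the labels name TRIzol and a VAHTS kit, whereas the study's methods name Bowtie2, eXpress, mirVana and a ribosomal RNA depletion kit. Which of these made the values is uncertain. The methods state DESeq2, which needs counts and could not be used.

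Columns were matched to samples by group and replicate number. In R 4.3.3, limma 3.58.1 with a trend on expression was fitted to log2(FPKM + 0.1) for each pair of groups, over the 15288 of 18505 genes with a mean of at least 0.1 FPKM, with two-sided p-values adjusted by the Benjamini-Hochberg method. The fit was tested on simulated data. Tables and plots used Python 3.11.15, pandas 2.3.3, numpy 2.4.6 and matplotlib 3.10.9. Depth is unknown without counts, so no counting interval is given.

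All genes matching the Serpin symbol rule were counted. Those with a mean of at least 1 FPKM were named, and those called in any comparison were given in every sample. Other members were named where called, and of each partner or marker list up to 3 genes were named, by mean FPKM among those called. The members and lists were chosen with earlier results of these data known. Alternatives changed the constant, filter, scaling, trend, call rule, replicate block, samples in the fit and single samples left out. The values of 1 Serpin gene are not reported here.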

Additional observations from a re-analysis of the deposited data

Results flagged for a closer look

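Among 96 combinations of a group with a Serpin gene of at least 1 FPKM, 6 had 1 sample far from the other 3 of its group, and chance gives about 1 in 20. In control replicate 2, Serpina3c was low at 25.3 FPKM and Serpina3f was low at 2.60 FPKM. This sample also stood apart on the first principal component. Serpinb3d was listed at 0.0213 FPKM in control replicate 3 and at 0 in the other control samples. In IMQ + BZLF, Serpinb6c was high at 7.73 FPKM in replicate 2, Serpinb8 was low at 13.5 FPKM in replicate 4 and Serpinf1 was low at 100.1 FPKM in replicate 1.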

How the results depend on the processing

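Of 60 calls of a Serpin gene in a comparison, recomputed in 1190 alternatives, 1120 kept their direction and passed both limits, 70 kept the direction and missed a limit, and 0 reversed. The 0 Serpin genes higher in IMQ + BZLF than in IMQ + NS became 1, Serpinb6d, with all 12 samples in one fit or with unadjusted p-values, and ranged from 0 to 1 with single samples left out. The 9 lower in that comparison became 4 with a constant of 1, while the 336 lower among all genes became 188. With single samples left out they ranged from 6 to 9. They were 6 without IMQ + NS replicate 2 or replicate 3, where 278 and 227 of all genes were lower. Against control, the 8 higher in IMQ + BZLF became 4 with a constant of 1 (7 to 9 with single samples left out). Over all 15288 genes, the 1475 higher became 979 with that constant. The 15 lower became 23 with no limit on the fold (14 to 18 with single samples left out). Over all genes, the 1542 lower became 4458 with no limit on the fold. In IMQ + NS against control the ranges with single samples left out were 12 to 13 higher and 15 to 16 lower. By the main rule, 1740 of all 15288 genes were higher and 1678 were lower. A constant of 1 gave 9 and 13 Serpin genes, and 1168 and 1023 of all genes. No limit on the fold gave 16 and 17, and 4427 and 4142 of all genes. A mean FPKM of at least 1 gave 8 and 13 of 33 Serpin genes tested, and 1440 and 1249 of all 12657 genes. Rescaling to equal sums moved the median log2 fold change of all genes to -0.12 in IMQ + BZLF against control. With the replicate block the counts were 12 higher and 16 lower, 0 and 9, and 7 and 15, for the comparisons in the order of the report, and the call of Serpinb9b was lost. Deviations of same-numbered samples correlated at -0.15 to 0.26, not above 0.1 in every pair, so the samples were not treated as pairs. Pancreas and seminal vesicle sums were nevertheless close between control and IMQ + BZLF samples of the same number, and whether these samples shared a step was not tested. Low FPKM values carry unknown counting error.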

Other observations

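Other gene groups of the skin moved between the groups. All 8 hair shaft keratins were higher in each imiquimod group than in control, and 0 were called by limma between these groups. Of 5 melanocyte markers, 4 were higher in each imiquimod group than in control. Mast cell proteases summed to 194 to 334 FPKM in control, 129 to 186 in IMQ + NS and 93.3 to 180.4 in IMQ + BZLF. Of the 4 tested, Cma1 and Cpa3 were lower in IMQ + NS and Cpa3 and Mcpt4 in IMQ + BZLF, each against control. Of 4 other mast cell markers, Fcer1a and Hdc were higher in IMQ + NS than in control and Fcer1a in IMQ + BZLF. Of 4 tested coagulation proteases and cofactors, F3 alone was lower in IMQ + NS than in control.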
